A study of Mus musculus with 6 samples.

Results

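The genes described are 10 members of the cathepsin system: the protease genes Ctsb, Ctsc, Ctsd, Ctsl, Ctss and Ctsz, the secreted inhibitor gene Cst3 (cystatin C) and the intracellular inhibitor genes Stfa2, Stfa2l1 and Csta2 of the stefin A family. They were taken by symbol from the deposited gene table, and all 10 were found among its 45777 genes. They had been picked with their difference between the treatments already known, so their own differences are given as a description without a test. RNA sequencing covered 6 libraries of neurons cultured from the dorsal root ganglia (DRG), which hold the cell bodies of sensory neurons, of 8-week-old wild-type C57BL/6 mice labelled as female. The ONCM group comprised 3 libraries exposed for 12 h to recombinant oncomodulin at 100 ng/ml, a calcium-binding protein of the parvalbumin family that is studied as an axon growth factor. The PBS group comprised 3 libraries given phosphate-buffered saline as the negative control. The labels call the libraries biological replicates but name no separate cultures or animals, so the spread between them may be technical.

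Cathepsins are proteases of the endosome and lysosome. Cathepsins B, C, L, S and Z are papain-like cysteine proteases, whereas cathepsin D is an aspartic protease that the cystatins do not inhibit. Cystatin C and the stefins bind the active site of cysteine cathepsins and block it reversibly. Cystatin C does so outside cells and in the secretory route, and the stefins in the cytosol. Neurons depend on lysosomal proteolysis to clear proteins and organelles delivered from their axons. Cathepsin S is best known from antigen-presenting cells, where it trims the invariant chain of MHC class II.

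Library totals ran from 53770820 to 60291315 counts with ONCM and from 55920700 to 64477014 counts with PBS. The 12 sensory neuron markers that were looked up were all counted, with a summed level of 20672 to 21830 CPM (read counts scaled to library size) in ONCM libraries and 22894 to 23761 CPM in PBS libraries. Sex-linked transcripts went against a single sex for all libraries. Xist, the RNA of the inactive X chromosome, stood at 413 to 513 CPM in ONCM libraries and 0.485 to 0.588 CPM in PBS libraries, and Ddx3y, a Y-linked helicase gene, at 15.1 to 16.9 CPM in ONCM libraries and 58.1 to 62.4 CPM in PBS libraries. The ONCM libraries thus held both transcripts, and the PBS libraries held Ddx3y with almost no Xist despite the female label. Because no library of one group resembles the other in these genes, the treatment and the source of the cells cannot be told apart in anything that follows. None of the 10 genes lies on chromosome X or Y.

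All 10 genes passed the filter on low counts, but the stefin genes did so only through the ONCM libraries. In 9 of the 10 genes every ONCM library lay above every PBS library in CPM, which was also the case for 27.6% of the 20354 genes tested. Nothing is read from that share, since this difference is what the genes were chosen on. The size of the difference set 3 kinds of gene apart. The stefins were close to absent with PBS, Ctss was about 5.07-fold higher with ONCM, and the other cathepsins and Cst3 lay within 1.03-fold and 1.41-fold.

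**Figure D1:**
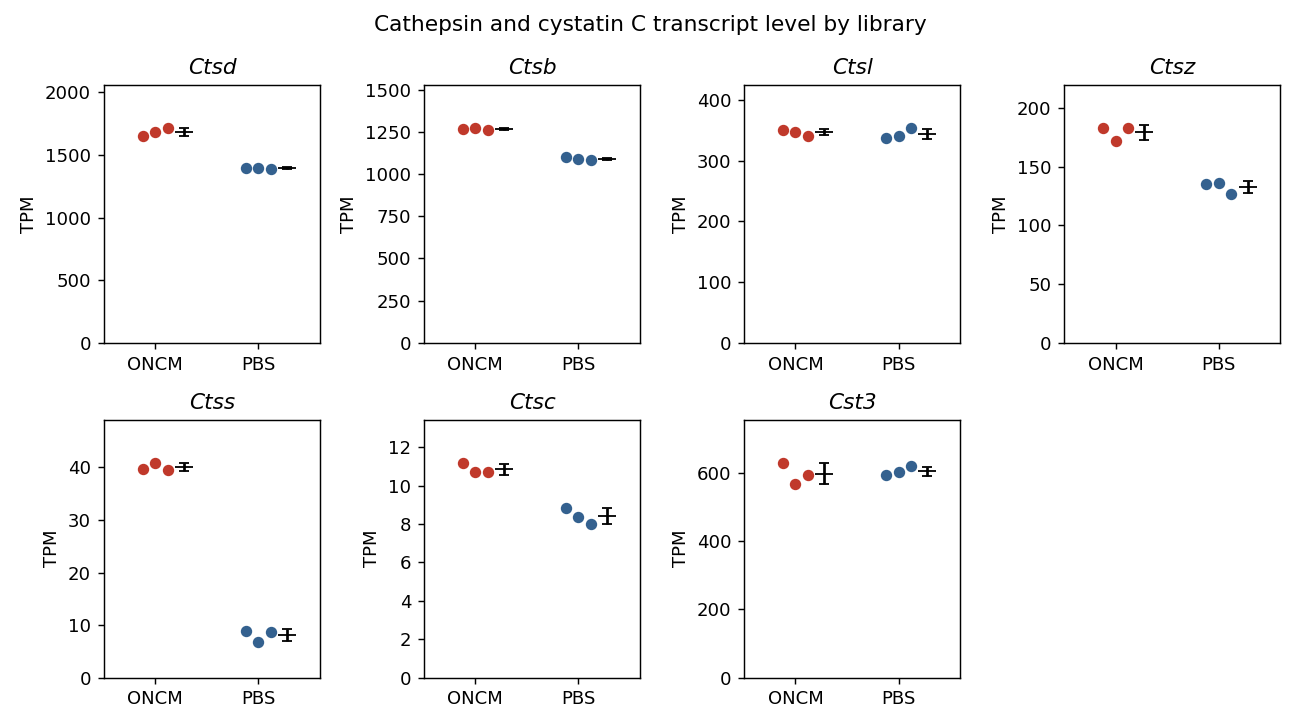
Transcript level in TPM (a transcript abundance that corrects for transcript length) of the 6 cathepsin genes and Cst3, with one point per library, ONCM on the left and PBS on the right of each panel, and a bar for the mean with its SD (n = 3). Each axis starts at 0; the groups are apart for Ctsd, Ctsb, Ctsz, Ctss and Ctsc and overlap for Ctsl and Cst3.

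Ctss, the cathepsin S gene (Entrez 13040, chromosome 3, 95526786 to 95556405 in GRCm38.p6, the assembly called mm10), had the widest relative difference among the proteases. It had 22, 22.5 and 22.3 CPM in the ONCM libraries, against 4.76, 3.66 and 4.71 CPM in the PBS libraries. The ONCM libraries were nearly equal to each other and all far above the PBS libraries. The fitted fold was 5.07, a log2 fold change of 2.34 that ran from 2.23 to 2.41 when each library was left out in turn. Per transcript length the level was 40 ± 0.757 TPM with ONCM and 8.16 ± 1.17 TPM with PBS (SD, n = 3 each). With PBS, Ctss was expressed as weakly as Ctsc, and the ranges of these neighbours overlapped, whereas with ONCM Ctss stood clear above it. Even so, Ctss made up only 1.13% of the summed TPM of the 6 cathepsins with ONCM and 0.274% with PBS.

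The 250 bases upstream of the annotated Ctss start are shown because they hold the letters of an interferon regulatory factor (IRF) element, GAAA, any 2 bases and GAAA again, set in capitals, that begins 21 bases before the start (RefSeq, chr3:95526536-95526785, plus strand).
Ctss: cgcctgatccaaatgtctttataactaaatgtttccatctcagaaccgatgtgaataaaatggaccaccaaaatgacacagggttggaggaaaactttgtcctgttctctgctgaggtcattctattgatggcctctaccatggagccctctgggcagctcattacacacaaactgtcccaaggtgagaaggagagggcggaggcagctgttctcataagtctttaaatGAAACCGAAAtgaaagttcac
Searched on both strands, these letters occur in 2.98% of the 32851 upstream windows of the same length in the promoter table. Of the 9 member genes with a window in that table, Ctss alone holds a match.

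Cathepsin S is made by macrophages, and their genes moved alongside it. Of 16 macrophage markers tested, 15 rose and Cx3cr1 did not pass the test (edgeR quasi-likelihood test, Benjamini-Hochberg adjusted p under 0.05 throughout), while 23.9% of all tested genes rose and 24.4% fell, 48.3% in all. Their summed level was 185 to 194 CPM in ONCM libraries and 61.3 to 64.9 CPM in PBS libraries, and none of them was at 0 in every library. Their log2 fold changes ran from 0.41 to 3.09, and 3 of the 16 exceeded that of Ctss. C1qb, a complement C1q chain, had 13.4 CPM with ONCM and 2.68 CPM with PBS, a 4.98-fold rise close to the ratio for Ctss. As a ratio to the summed macrophage markers, Ctss stood at 0.119, 0.116 and 0.116 in the ONCM libraries and 0.0736, 0.0598 and 0.0726 in the PBS libraries, so its difference was wider than that of the sum. Some markers of other cell types moved as well. Of 6 fibroblast markers 4 rose, with a summed level of 429 to 449 CPM in ONCM libraries and 296 to 300 CPM in PBS libraries, and of 5 endothelial markers 4 rose, with 132 to 137 CPM in ONCM libraries and 109 to 113 CPM in PBS libraries. Of the 12 sensory neuron markers 2 rose and 7 fell. Of 6 satellite glia markers 1 rose and 1 fell, with 1856 to 2009 CPM in ONCM libraries and 1821 to 1884 CPM in PBS libraries. Of 8 Schwann cell markers 3 rose and 2 fell, with 3410 to 3561 CPM in ONCM libraries and 3298 to 3371 CPM in PBS libraries. The median log2 fold change was -0.07 for the satellite glia markers and -0.02 for the Schwann cell markers. In bulk RNA, more cells of a type and more RNA per cell cannot be told apart, and the part of these cell types in the Ctss difference was not tested.

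The stefin A genes were the members nearest to absence in control cultures. Stefins are small cytosolic inhibitors of cysteine cathepsins, and mice carry a family of related stefin A genes side by side on chromosome 16. Stfa2 (Entrez 20862, chromosome 16, 36403946 to 36408363) was counted 73, 62 and 79 times in the ONCM libraries and had a count of 0 in each of the PBS libraries. That is a mean of 1.27 ± 0.206 CPM with ONCM (SD, n = 3), at least 25-fold higher than 3 counts in each PBS library would give. Stfa2l1 (Entrez 268885, 36156811 to 36161948) was counted 22, 17 and 12 times with ONCM and 0 times in each PBS library, which makes it at least 5.97-fold higher with ONCM by the same bound. Both genes were therefore detected in every ONCM library and in no PBS library. Csta2 (Entrez 76770, 36221562 to 36257447) was counted 95, 93 and 84 times with ONCM, against 0, 0 and 15 times with PBS. The single PBS library with counts is replicate 3, and it sets the ratio. With it the mean was 1.61 ± 0.14 CPM with ONCM and 0.0865 ± 0.15 CPM with PBS (SD, n = 3 each), an 18.6-fold difference, and without it Csta2 was at least 32.1-fold higher with ONCM. These counts are small for libraries of this depth, and the bound covers counting error only.

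The other stefin and cystatin A genes of the cluster, between positions 36119946 and 36455392, had fewer counts or none. Of the 11 family members in the table, 4 had a count of 0 in every library, Stfa1 and Stfa3 among them, and so had Cstdc3 and Cstdc6. Cstdc4 was counted 23, 21 and 7 times with ONCM and 0 times in each PBS library, but fell short of the filter on low counts. It was called higher with no filter, and also without ONCM replicate 3 or any one PBS library. It entered those tests only through its ONCM counts, and its coding sequence is close to that of the member Csta2. Nothing is read from those calls. Csta1 had at most 4 counts in an ONCM library and 0 in each PBS library. Csta3 had at most 5 counts in an ONCM library and 3 in a PBS library, and Cstdc5 had 0 counts in each ONCM library and 4 in a single PBS library. Over the 11 genes the counts summed to 213, 198 and 191 in the ONCM libraries and to 4, 3 and 15 in the PBS libraries. Csta2 and Stfa2 together held most of them.

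**Figure D2:**
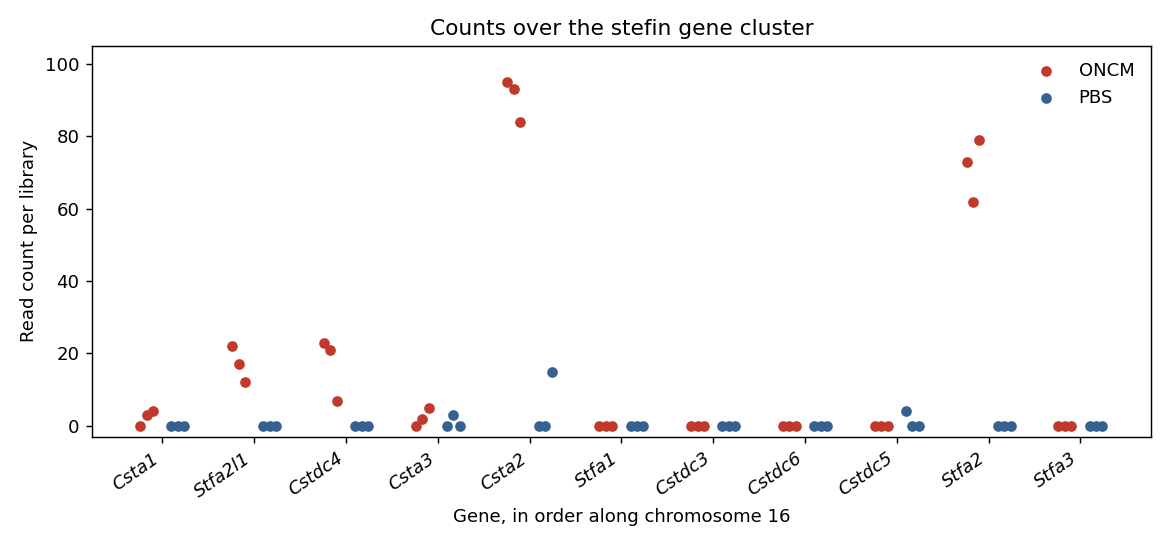
Read counts per library over 11 stefin and cystatin A genes in their order along chromosome 16, with ONCM points to the left of PBS points for each gene. Csta2 and Stfa2 reach 62 to 95 counts in every ONCM library, Stfa2l1 and Cstdc4 reach 7 to 23, and among PBS libraries the highest value is 15 for Csta2 in replicate 3.

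How far these copies can be told apart by sequence bears on their separate values. The coding sequences of Stfa2 and Stfa2l1 were identical at 301 of 312 bases (96.5%) in the GENCODE M21 transcripts, and those of Csta2 and Cstdc4 at 96.9%. Stfa2 and Csta2 shared 83.5%. The first 60 bases of the last coding exon are shown in coding direction, with bases that differ from Stfa2 in capitals (Stfa2, chr16:36404093-36404152, minus strand; Stfa2l1, chr16:36161747-36161806, plus strand; Csta2, chr16:36257247-36257306, plus strand).
Stfa2: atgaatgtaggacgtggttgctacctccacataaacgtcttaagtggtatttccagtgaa
Stfa2l1: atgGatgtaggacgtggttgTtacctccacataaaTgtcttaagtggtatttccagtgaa
Csta2: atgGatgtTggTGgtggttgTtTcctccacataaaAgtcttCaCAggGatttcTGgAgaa
Stfa2l1 differs from Stfa2 at 3 of these 60 positions and Csta2 at 14. Of all 50-base windows of the transcripts, 15.9% for Stfa2, 24.6% for Stfa2l1 and 20.4% for Csta2 also occur in a transcript of another gene, while of 100-base windows only Csta2 shares any, 5.61%, all with Cstdc4. The sources used here give neither the read length nor the treatment of multiply mapped reads, and the split of counts between Stfa2 and Stfa2l1 and between Csta2 and Cstdc4 is uncertain. Stfa2 also shares 50-base windows with Gm4758 and Gm49652, and Stfa2l1 with Gm49652, so reads of Gm4758 or Gm49652 may be included.

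The upstream sequences of Stfa2 and Stfa2l1 are also alike, and they are shown because both genes were counted in every ONCM library and in no PBS library. Capitals mark bases that differ from, or have no partner in, the other gene (RefSeq, GRCm38.p6; Stfa2, chr16:36408364-36408613, minus strand; Stfa2l1, chr16:36156561-36156810, plus strand).
Stfa2: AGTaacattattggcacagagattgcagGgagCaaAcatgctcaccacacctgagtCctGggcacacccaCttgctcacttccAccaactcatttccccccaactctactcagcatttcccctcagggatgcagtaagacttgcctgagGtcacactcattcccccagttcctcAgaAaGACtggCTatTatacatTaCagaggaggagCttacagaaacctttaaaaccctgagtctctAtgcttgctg
Stfa2l1: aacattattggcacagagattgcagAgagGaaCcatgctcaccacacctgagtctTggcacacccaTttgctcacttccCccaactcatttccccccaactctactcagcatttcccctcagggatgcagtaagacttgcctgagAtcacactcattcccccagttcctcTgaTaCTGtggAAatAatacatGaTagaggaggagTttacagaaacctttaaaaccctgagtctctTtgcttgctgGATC
They were identical at 227 of 246 aligned bases (92.3%), and Csta2 was 57.2% identical to Stfa2 over 215 aligned bases upstream of its annotated start. The annotated Csta2 gene starts at 36221562 and its coding sequence at 36253046, so its window may lie far from the start in use. Which start was used in these cultures was not tested. None of the 4 motifs searched (the IRF letters, the E-box CACGTG, the AP-1 letters TGANTCA and the STAT letters TTCNNNGAA, each on both strands) occurs in the window of any of these stefin genes. The last 3 motifs occur in 6.02%, 6.75% and 7.02% of all windows.

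In mice stefin A genes are known from leukocytes and from stratified epithelium, so markers of both were read beside them. Over all tested genes 23.9% rose. Of 12 neutrophil markers 7 could be tested and 4 rose, Ly6g, Csf3r, Cxcr2 and Ltf, while the granule genes Mpo and Elane were at 0 in every library. The summed level of the neutrophil markers was 5.84 to 5.95 CPM in ONCM libraries and 2.78 to 3.36 CPM in PBS libraries. Ly6g had 1.88 ± 0.112 CPM with ONCM and 0.136 ± 0.0497 CPM with PBS (SD, n = 3 each). Its PBS level was too low for the filter on low counts, so it was tested only because of its ONCM counts. S100a8 and S100a9, which are abundant in neutrophils, stood at 0.295 and 0.483 CPM with ONCM and at 0.487 and 0.743 CPM with PBS, and neither passed. Of 10 keratinocyte markers 7 were tested and 4 rose, Trp63, Krt6a, Sfn and Lor, with a summed level of 43.9 to 48.2 CPM in ONCM libraries and 37 to 40.8 CPM in PBS libraries that was mostly Sfn. None of these 10 markers was at 0 in every library. The part of either cell type in the stefin counts was not tested.

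The abundant lysosomal proteases differed far less. Ctsd, the cathepsin D gene (Entrez 13033, chromosome 7, 142375910 to 142387827), was the most highly expressed member per transcript length, at 1653, 1685 and 1716 TPM in the ONCM libraries, against 1399, 1399 and 1386 TPM in the PBS libraries. Ctsb, for cathepsin B (Entrez 13030, chromosome 14, 63122462 to 63145923), came next with 1269, 1273 and 1259 TPM with ONCM, against 1098, 1091 and 1086 TPM with PBS. The groups were clear of each other for both genes, and the log2 fold changes on counts were 0.33 for Ctsd and 0.28 for Ctsb. In CPM the coefficient of variation among libraries was 2.96% with ONCM and 0.425% with PBS for Ctsd, and 0.704% with ONCM and 0.201% with PBS for Ctsb. Together Ctsd and Ctsb supplied 83.6% of the summed cathepsin TPM with ONCM and 83.5% with PBS, with overlapping ranges.

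The window upstream of Ctsd is shown for its E-boxes, the palindrome CACGTG at the core of the element bound by TFEB and related factors of lysosomal genes (capitals; RefSeq, chr7:142387828-142388077, minus strand).
Ctsd: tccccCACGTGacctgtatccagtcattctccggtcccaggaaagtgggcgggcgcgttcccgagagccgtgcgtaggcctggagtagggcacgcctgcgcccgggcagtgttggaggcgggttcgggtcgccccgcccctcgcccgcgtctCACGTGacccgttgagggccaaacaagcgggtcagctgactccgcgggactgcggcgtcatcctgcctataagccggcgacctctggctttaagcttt
The matches begin 245 and 98 bases before the annotated start. Ctsl holds 1 match, 236 bases before its start, and the windows of Ctsc, Ctss, Ctsz and Cst3 hold none. Ctsc holds the single STAT match of the members, 236 bases before its start, and no window holds the AP-1 letters.

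Ctsz and Ctsc showed somewhat wider ratios at lower levels. Ctsz encodes cathepsin Z, a carboxypeptidase (Entrez 64138, chromosome 2, 174427494 to 174439039). It had 108, 101 and 110 CPM in the ONCM libraries, against 76.1, 77.2 and 72.4 CPM in the PBS libraries, a ratio of 1.41-fold. Ctsc encodes cathepsin C, a dipeptidyl peptidase that activates the granule serine proteases of leukocytes (Entrez 13032, chromosome 7, 88278024 to 88315861). It had 29.2, 28.9 and 29.1 CPM with ONCM, against 21.9, 21 and 20.7 CPM with PBS, a ratio of 1.37-fold. Neither gene had an ONCM library within the range of the PBS libraries.

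Ctsl and Cst3 were level between the treatments or nearly so. Ctsl, for the endopeptidase cathepsin L (Entrez 13039, chromosome 13, 64361890 to 64370772), had 505, 497 and 500 CPM in the ONCM libraries, against 464, 470 and 493 CPM in the PBS libraries. The highest PBS library came close to the lowest ONCM library, and in TPM the groups overlapped, at 347 ± 5.21 TPM with ONCM and 344 ± 8.84 TPM with PBS (SD, n = 3 each). Its log2 fold change was 0.07 on counts and 0.01 on the log2(TPM + 1) scale. Cst3 (Entrez 13010, chromosome 2, 148871722 to 148875512) had 205, 184 and 197 CPM with ONCM, against 184, 189 and 195 CPM with PBS. The ONCM libraries spanned the whole PBS range, and the ratio of the means was 1.03 in CPM and 0.988 in TPM.

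The order of the members by TPM was Ctsd, Ctsb, Cst3, Ctsl and Ctsz in both groups, and none of these neighbours overlapped. The lower ranks differed between groups. With ONCM they ran Ctss, Ctsc, Stfa2, Csta2 and Stfa2l1, and the Stfa2 and Csta2 ranges overlapped, at means of 7.21 and 7.16 TPM. With PBS they ran Ctsc, Ctss and Csta2, followed by Stfa2 and Stfa2l1 at 0. The 6 cathepsins summed to 3529 ± 20.8 TPM with ONCM and 2979 ± 9.75 TPM with PBS (SD, n = 3 each), 1.18-fold higher with ONCM. The ratio of Cst3 to the sum of the 5 cysteine cathepsins in TPM was 0.339, 0.307 and 0.323 in ONCM libraries and 0.373, 0.38 and 0.39 in PBS libraries. The ONCM values were all lower. The 3 stefins summed to 16.1 ± 1.68 TPM with ONCM, against 1844 ± 10.7 TPM for the 5 cysteine cathepsins in the same libraries (SD, n = 3).

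By the root mean square difference between log2 CPM profiles centred on each gene over the 6 libraries, the genes most like Ctss among 15269 candidates were Aldh1l1 (0.075), C1qb (0.086) and Gm40202 (0.096). Those most like Cst3 were Timm10 (0.017), Rabl3 (0.018) and Ints12 (0.018). Each profile has 6 points that share the same libraries. For Stfa2l1 the PBS part of the profile is set by the small count added before taking logs, so its nearest genes by this measure, Nts, C1qc and C030004G16Rik, are named without a distance and nothing is read from them.

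Genes of the same system outside the 10 were tested with all other genes of the table, whose median log2 fold change was -0.002. Of all tested genes 23.9% rose and 24.4% fell. Of all calls 49.5% were rises on counts and 36.1% on the log2(TPM + 1) scale, where the median was -0.07. Of 17 other cathepsin genes in the deposited file, 5 passed the filter, 1 rose, 1 fell and 3 did not pass. Ctsh, for the aminopeptidase cathepsin H, rose 1.77-fold to 3.66 ± 0.358 CPM with ONCM, against 2.07 ± 0.19 CPM with PBS (log2 fold change 0.82, SE 0.13, edgeR adjusted p = 3.74e-05). Ctsf, for cathepsin F, fell by 0.20 on the log2 scale (SE 0.05, edgeR adjusted p = 0.0049), with 27.7 ± 2.19 CPM with ONCM and 31.9 ± 0.929 CPM with PBS (SD, n = 3 each). Ctsa, Ctsk and Ctso had log2 fold changes of 0.09, 0.22 and 0.10. Ctsa passed under DESeq2's test (adjusted p = 0.0427), with DESeq2's size factors in edgeR (adjusted p = 0.0402) and without ONCM replicate 1 (edgeR adjusted p = 0.0267), and Ctsk passed without ONCM replicate 3 (edgeR adjusted p = 0.0447). The placental cathepsin genes Cts3, Cts6, Cts7, Ctsj, Ctsm, Ctsq and Ctsr were at 0, as was Ctsll3.

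Of 21 other stefin and cystatin family genes, 6 were tested, 3 rose, 2 fell and 1, Cstl1 (log2 fold change 0.42), did not pass, with a median log2 fold change of 0.44. Cstb, for stefin B, the widely expressed cytosolic inhibitor, rose 1.37-fold to 40.9 ± 3.22 CPM with ONCM, against 29.9 ± 3.33 CPM with PBS (edgeR adjusted p = 0.000344). Cst7, for the leukocyte inhibitor cystatin F, rose to 0.573 ± 0.25 CPM with ONCM, against 0.13 ± 0.0189 CPM with PBS (edgeR adjusted p = 0.000373). Cst6, for the secreted cystatin E/M, fell to 6.64 ± 0.25 CPM with ONCM, against 10.5 ± 0.597 CPM with PBS (edgeR adjusted p = 1.16e-06, SD, n = 3 each). Fetub and Kng2, for fetuin-B and a kininogen, had 0.191 and 0.285 CPM with ONCM and 0.444 and 0.0695 CPM with PBS. Cst7 and Kng2, which are among the 3 rises, had PBS levels too low for the filter on low counts. Both were tested only because of their ONCM counts, so nothing is read from their calls. The Fetub call was lost without ONCM replicate 2 (edgeR adjusted p = 0.0626) or PBS replicate 2 (edgeR adjusted p = 0.0575). The Kng2 call was lost without ONCM replicate 3 (edgeR adjusted p = 0.0578), PBS replicate 2 (edgeR adjusted p = 0.0534) or PBS replicate 3 (edgeR adjusted p = 0.0517).

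A list of genes for cathepsin activation and for inhibitors that are not cystatins also held Cd74, Grn and Psap. Of its 14 tested genes 8 rose (57.1%), Cd74, Grn and Psap among them, 3 fell (21.4%) and 3 did not pass. Over all tested genes the shares were 23.9% and 24.4%. The median log2 fold change of the 14 was 0.26. Those that did not pass were Ctla2b, Serpina3n and Serpina3f, at log2 fold changes of 0.41, -0.04 and -0.20. Serpinb1a, a serpin directed at neutrophil serine proteases, rose 3.08-fold to 320 ± 5.57 CPM with ONCM, against 104 ± 1.5 CPM with PBS (edgeR adjusted p = 1.21e-17). Ctla2a, a homologue of the cathepsin L propeptide that inhibits cathepsin L-like proteases in the mouse, rose 2.35-fold, and Grn, for the lysosomal protein progranulin that cathepsins cleave, rose 2.04-fold. Cd74, the invariant chain that cathepsin S processes, rose 2.12-fold to 70.4 ± 5.73 CPM with ONCM, against 33.3 ± 2.33 CPM with PBS (edgeR adjusted p = 5.46e-10, SD, n = 3 each). Serpina3g, a mouse serpin that inhibits cysteine cathepsins, fell to 37.6 ± 0.176 CPM with ONCM, against 79.3 ± 2.36 CPM with PBS (edgeR adjusted p = 7.62e-14). Lgmn, for legumain, which matures several cathepsins, fell by 0.30 on the log2 scale (SE 0.03, edgeR adjusted p = 3.56e-08), and Serpinb8, a serpin gene, fell by 0.50. The rise of Psap, for prosaposin, was a log2 fold change of 0.07 (edgeR adjusted p = 0.0439). It was lost when any library other than ONCM replicate 1 was left out (edgeR adjusted p from 0.068 to 0.196). The call was also lost with no filter (edgeR adjusted p = 0.095) and with replicate number as a block (edgeR adjusted p = 0.0537). On both TPM scales the log2 fold change of Psap was 0.01 and did not pass (limma adjusted p = 0.85 and 0.847).

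Among 40 lysosomal hydrolase genes there were 12 rises (30%), 11 falls (27.5%) and 17 without a call, shares near the 23.9% and 24.4% of all tested genes, and their median log2 fold change was 0.01. The carboxypeptidase gene Scpep1 rose to 154 ± 1.76 CPM with ONCM, against 68.7 ± 1.67 CPM with PBS (SD, n = 3 each), the cholesterol carrier gene Npc2 rose 1.42-fold and Galns, a sulfatase gene, 2.42-fold. Gaa, for acid alpha-glucosidase, fell by 0.41 on the log2 scale. Of 22 lysosomal membrane protein genes 11 rose, 5 fell and 6 did not pass (median 0.10). On both TPM scales 8 of them rose, and with a library left out 8 to 11 rose. Rises included Laptm4a (1.74-fold), Cd63 (1.43-fold) and the macrophage genes Cd68 (2.25-fold) and Laptm5 (3.35-fold), and the falls were Slc17a5, Tmem175, Laptm4b, Abca2 and Ostm1, by 0.31 to 0.11 on the log2 scale. The Ostm1 call was lost under DESeq2 (adjusted p = 0.0637) and without ONCM replicate 1, ONCM replicate 2 or PBS replicate 1 (edgeR adjusted p = 0.0985, 0.0903 and 0.152). Of 20 vacuolar ATPase genes, which encode the proton pump that acidifies the lysosome, 10 rose, 4 fell and 6 did not pass (median 0.11). Tcirg1, for a pump subunit of osteoclasts and leukocytes, rose 2.02-fold, and Atp6v0b, Atp6ap1 and Atp6ap2 rose with log2 fold changes of 0.50, 0.42 and 0.32. Atp6v0e2 and Atp6v1a fell by 0.22 and 0.18 on the log2 scale. The other falls were small, 0.10 for Atp6v1c1 and 0.08 for Atp6v1g2, and did not hold throughout. The Atp6v1g2 call was lost whichever library was left out (edgeR adjusted p from 0.0511 to 0.101), under DESeq2 (adjusted p = 0.0652) and with its size factors in edgeR (adjusted p = 0.0606). The Atp6v1c1 call was lost without ONCM replicate 1, ONCM replicate 2 or PBS replicate 2 (edgeR adjusted p = 0.0821, 0.137 and 0.061). Without ONCM replicate 1, ONCM replicate 2 or PBS replicate 2 the pump falls numbered 2. On both TPM scales the pump rises and falls numbered 7 each, in place of 10 and 4. Of 20 sorting genes and transcription factors of the TFEB family with their regulators, 9 rose, 3 fell and 8 did not pass (median 0.12). M6pr and Igf2r, for the receptors that carry cathepsins to the lysosome, rose 1.34-fold and 1.18-fold, Ap1m1 rose 1.18-fold and Fnip2 rose 1.26-fold, while the sorting genes Sort1, Ap1b1 and Vps35 fell by 0.24, 0.16 and 0.10 on the log2 scale. On both TPM scales 3 of these genes rose in place of 9. Tfeb had 6.38 CPM with ONCM and 6.58 CPM with PBS and did not pass (edgeR adjusted p = 0.759). The edgeR adjusted p-values of these named rises ran from 3.83e-15 for Scpep1 to 0.000274 for Igf2r, that of Gaa was 3.69e-09, and the largest among the named falls was 0.0432 for Atp6v1g2.

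**Figure D3:**
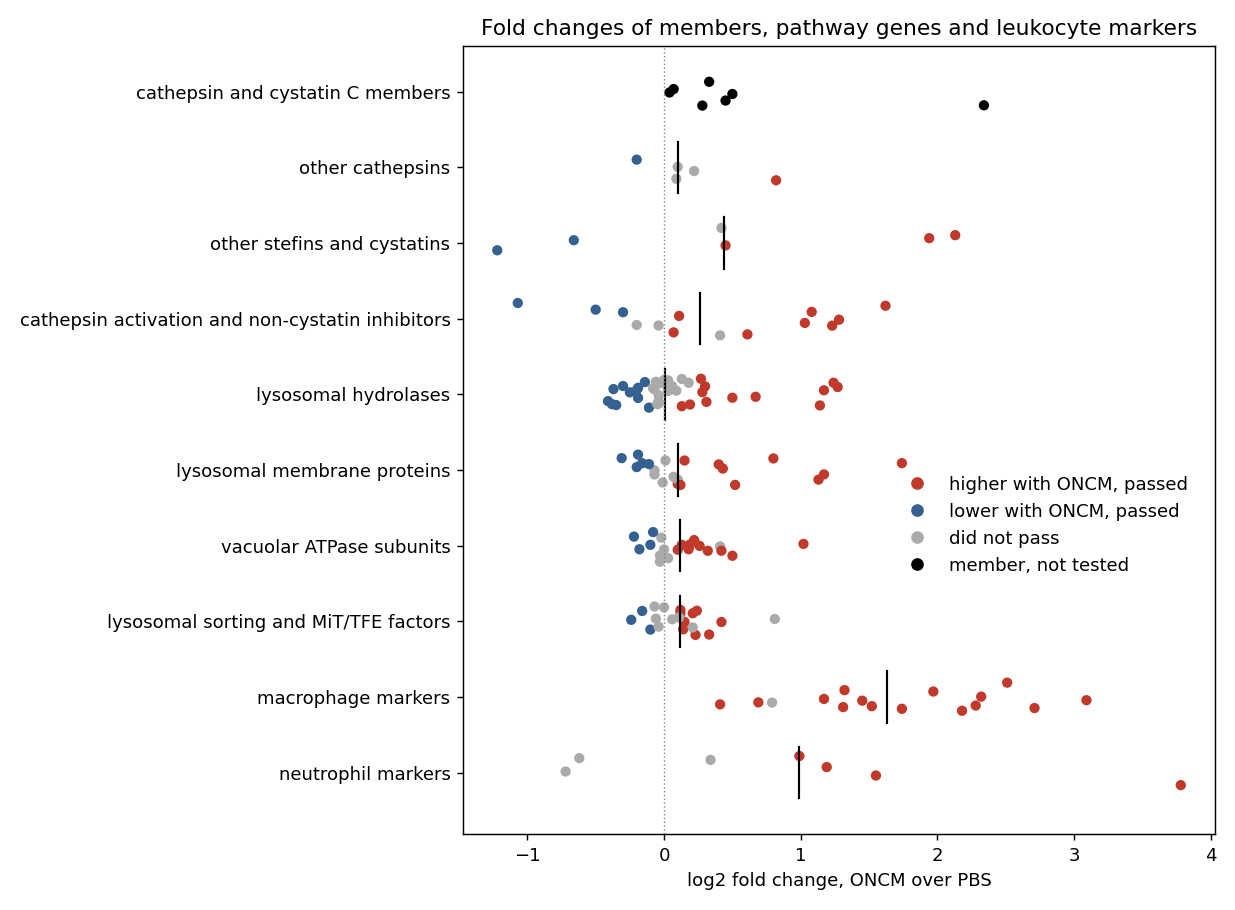
Log2 fold change of ONCM over PBS for the cathepsin and Cst3 members (black, described without a test), for tested genes of 7 lists of the same system and for macrophage and neutrophil markers, with one point per gene and a line at the median of each list other than the members. The stefin members are not drawn, since their PBS counts were 0 or nearly so. Red and blue points passed the edgeR test upward and downward and grey points did not; the macrophage median of 1.63 lies far from the lysosomal hydrolase median of 0.01, and Ctss lies at 2.34.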

How the data were processed

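Raw read counts, FPKM and TPM per gene were deposited by the authors in 1 table. The counts were used as deposited, the deposited TPM values gave levels between genes, and the FPKM values deposited by the authors were not used. Each column was tied to its sample by the sample code in its name, which the labels also give. Reads were placed on mm10, per the submitters' processing notes. Aligner, counter, annotation and strand setting: not given in the sources used here. Near-identical and overlapping genes may therefore share reads. Coordinates come from RefSeq genes of GRCm38.p6, matched by gene number for 45679 genes.

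For the tests, edgeR 4.0.16 in R 4.3.3 was run on the counts (filterByExpr, TMM scaling, robust quasi-likelihood F-test, no covariate, Benjamini-Hochberg over 20354 genes), and the procedure was tested on simulated data. "Rose" and "fell" mean an adjusted p under 0.05. The SE was taken as the log2 fold change over the root of the F statistic. CPM uses TMM-scaled library sizes, and 3 counts correspond to 0.0464 to 0.0558 CPM. Replicates differed beyond counting noise (chi-square per degree of freedom 2.85 to 7.73), so no library was a copy of another.

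The alternatives were DESeq2 1.42.0, DESeq2 size factors, no filter, limma 3.58.1 on log2(TPM + 1) and log2(TPM + 0.1), omission of chromosomes X, Y and MT, the replicate block and leaving out each library. The members and the 7 pathway lists (162 symbols, 155 found) were chosen with earlier results of these data known. Named beside the members were, per pathway list, up to 4 genes with the smallest p among those that passed, every gene behind a count of 5 or fewer, the 3 closest profiles of Ctss, Stfa2l1 and Cst3 (mean CPM of at least 1), and Xist and Ddx3y. Cd74, Psap, Tfeb and the single cell type markers were picked after their values were seen.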

Additional observations from a re-analysis of the deposited data

How the results depend on the processing

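Of the 10 members, described without a test, all but Cst3 kept their direction under every alternative that gave a value, and Stfa2l1 had none on the TPM scales. Cst3 was at -0.02 on both TPM scales against 0.04 on counts. On log2(TPM + 1) the log2 fold changes were 0.21 for Ctsb, 0.34 for Ctsc, 0.27 for Ctsd and 0.01 for Ctsl. The size of the log2 fold change moved most for Stfa2 and Csta2. That of Stfa2 was 9.20 in edgeR, 8.68 with DESeq2, 3.03 on log2(TPM + 1) and 6.18 on log2(TPM + 0.1). That of Csta2 was 4.22 in edgeR and 9.54 without PBS replicate 3. Over all genes the rises numbered 4869, against 3029 on log2(TPM + 1) and 3014 on log2(TPM + 0.1). Leaving out each library gave 4305 to 4655 rises and 4447 to 4882 falls. Other cathepsins had 1 rise, 2 with DESeq2 or its size factors, and 1 to 2 with a library left out. Other stefins and cystatins had 1 rise and 1 fall on either TPM scale, in place of 3 and 2, because Cst7, Kng2 and Fetub were then not tested, and 3 to 4 rises and 1 to 2 falls with a library left out. Falls among cathepsin activation and inhibitor genes numbered 5 on log2(TPM + 1) in place of 3. Vacuolar ATPase falls numbered 7 on either TPM scale in place of 4, and 2 to 3 with a library left out. The rises of that list numbered 7 on either TPM scale in place of 10, and 8 to 10 with a library left out. Sorting gene rises numbered 3 on either TPM scale in place of 9. The cause was not tested. Replicate numbers shared by the groups did not pair the libraries (correlations of deviations -0.045, -0.012 and 0.002), and the replicate block gave 9597 calls in place of 9829. Fnip2 did not pass on either TPM scale (limma adjusted p = 0.0629 and 0.0617). Depth limits the stefins, with at most 95 counts in a library.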
